A study of Mus musculus with 6 samples.

Results

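Glycolysis and hypoxia response genes were followed in blood progenitors of the mouse fetal liver after knockdown of Samd14, a gene that encodes a sterile alpha motif protein. The set was a fixed list of 38 genes, of 24376 gene IDs in the deposited tables, and all 38 were among the 12670 genes with enough counts to be tested. It was divided by role into 24 genes of glucose uptake, glycolysis and lactate handling, called glycolytic genes here, and 14 other genes of the hypoxia response. No expression value was used to choose them, although the list was drawn up with earlier results of these data known.

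The shSamd14 group held 3 libraries from cultures infected with a retrovirus carrying a short hairpin RNA (shRNA) against Samd14. The control group held 3 libraries from cultures infected in the same way with a control shRNA, whose target the labels do not give. All 6 libraries came from C57BL/6 embryos at E14.5. Progenitors were enriched, infected directly after isolation and kept in StemPro-34 medium for 3 days, and 200000 cells without the erythroid surface proteins CD71 and Ter119 were then sorted for polyadenylated RNA. The labels give neither the hairpin sequences nor the oxygen level of the cultures, and no label ties the libraries of a group to different animals or cultures. The spread behind the p-values is therefore that of these samples alone and may be technical.

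Glycolysis splits glucose into pyruvate and yields ATP without oxygen, and lactate dehydrogenase turns the pyruvate into lactate, which leaves the cell through monocarboxylate transporters. When oxygen is scarce, the hydroxylases that mark hypoxia-inducible factor (HIF) for destruction slow down, and the stabilised factor raises transcription of most genes of glycolysis and of many genes of mitochondria, vessels and the extracellular matrix. Blood stem cells are known for a strong reliance on glycolysis and on HIF.

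The libraries held 23862151 to 26462797 estimated counts in shSamd14 and 20584169 to 24069711 in control, so that 3 counts correspond to 0.113 to 0.146 counts per 1000000 (CPM). Samd14 itself had 41.9, 38.8 and 39.4 CPM in shSamd14 libraries 1, 2 and 3, against 82.0, 82.1 and 83.8 CPM in control libraries 1, 2 and 3. Its log2 fold change, shSamd14 over control, was -1.05 (SE 0.06, edgeR adjusted p = 4.69e-07). An edgeR adjusted p is that of the quasi-likelihood test, by the Benjamini-Hochberg method over all 12670 genes. Among 9 lists of cell type markers, the summed level of the erythroid list was 5264 to 6252 CPM in shSamd14 and 3375 to 5218 CPM in control, and that of the megakaryocyte list 343 to 355 CPM in shSamd14 and 260 to 294 CPM in control, without overlap between groups. Of these markers, 2 of 12 erythroid genes (Car1 and Hemgn) and 3 of 8 megakaryocyte genes (Pf4, Gp5 and Vwf) passed the test, all higher in shSamd14. The progenitor list, which includes Kit, summed to 1078 to 1098 CPM in shSamd14 and 1092 to 1271 CPM in control. This sum mixes directions. Kit was lower (log2 fold change -0.33, edgeR adjusted p = 0.0943) without overlap between groups. Gata2 (0.25, edgeR adjusted p = 0.106) and Cd48 (0.29, edgeR adjusted p = 0.0672) were higher without overlap, and the other progenitor genes overlapped. DESeq2 called Kit lower and Cd48 higher. The neutrophil list summed to 3475 to 5171 CPM in shSamd14 and 3170 to 5072 CPM in control, and the mast and basophil list to 249 to 327 CPM in shSamd14 and 247 to 290 CPM in control. Macrophage, hepatocyte, endothelial and stromal, and lymphoid lists summed to at most 50.5 CPM in any library, with Cd5l, C1qa, Serpina1a, Col3a1 and Dcn at 0 in all 6. Tfrc, which encodes CD71, was still at 824 ± 48.0 CPM in shSamd14 and 934 ± 57.3 CPM in control (SD, n = 3 each), although the cells were sorted as negative for its protein. In such bulk RNA, fewer cells of a type and less RNA per cell cannot be told apart.

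Few genes of the set passed the test. Ddit4, P4ha2 and Mgarp fell, none rose, and all 3 belong to the hypoxia genes outside glycolysis. That is 3 of 38 genes, or 7.89%, against 1.26% of all tested genes called lower and 1.32% called higher. DESeq2 and limma-voom called the same 3 genes among the hypoxia genes outside glycolysis. Of the 24 glycolytic genes none passed in the main edgeR fit, 7 had an unadjusted p under 0.05 and all 7 of these were lower. DESeq2 called Pfkl and Pdk1 lower among the glycolytic genes, and limma-voom called none. With the replicate number as a block in edgeR, Slc2a3, Pfkl, Pfkp, Slc16a3 and Pdk1 passed. The labels do not say whether the numbers pair the samples. Over the whole set 13 genes had an unadjusted p under 0.05 and a lower value, against 7.92% of all tested genes, and none had one with a higher value.

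Direction was more uniform than the calls. The log2 fold change was negative for 34 of 38 genes, 22 of 24 glycolytic and 12 of 14 other hypoxia genes, where 48.4% of all tested genes were negative. The exceptions were Pfkm, Ldhb, Bnip3l and Mxi1, of which Bnip3l (-0.03) and Mxi1 (-0.03) were negative without control 2. The median log2 fold change was -0.12 over the glycolytic genes and -0.22 over the other hypoxia genes, against 0.006 over all tested genes. It was -0.13 over the 35 genes that did not pass. All 3 shSamd14 libraries lay below all 3 control libraries in 13 of 38 genes, 8 of them glycolytic, where this held for 10.2% of all tested genes. In TPM (transcripts per 1000000, scaled by length) 10 of these 13 genes also did not overlap, while Pgam1, Pfkfb3 and Vegfa did. No gene of the set had all shSamd14 libraries above all control libraries, where 10.5% of all tested genes did. Genes of the set vary together within a library, so these counts are not independent observations.

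**Figure D1:**
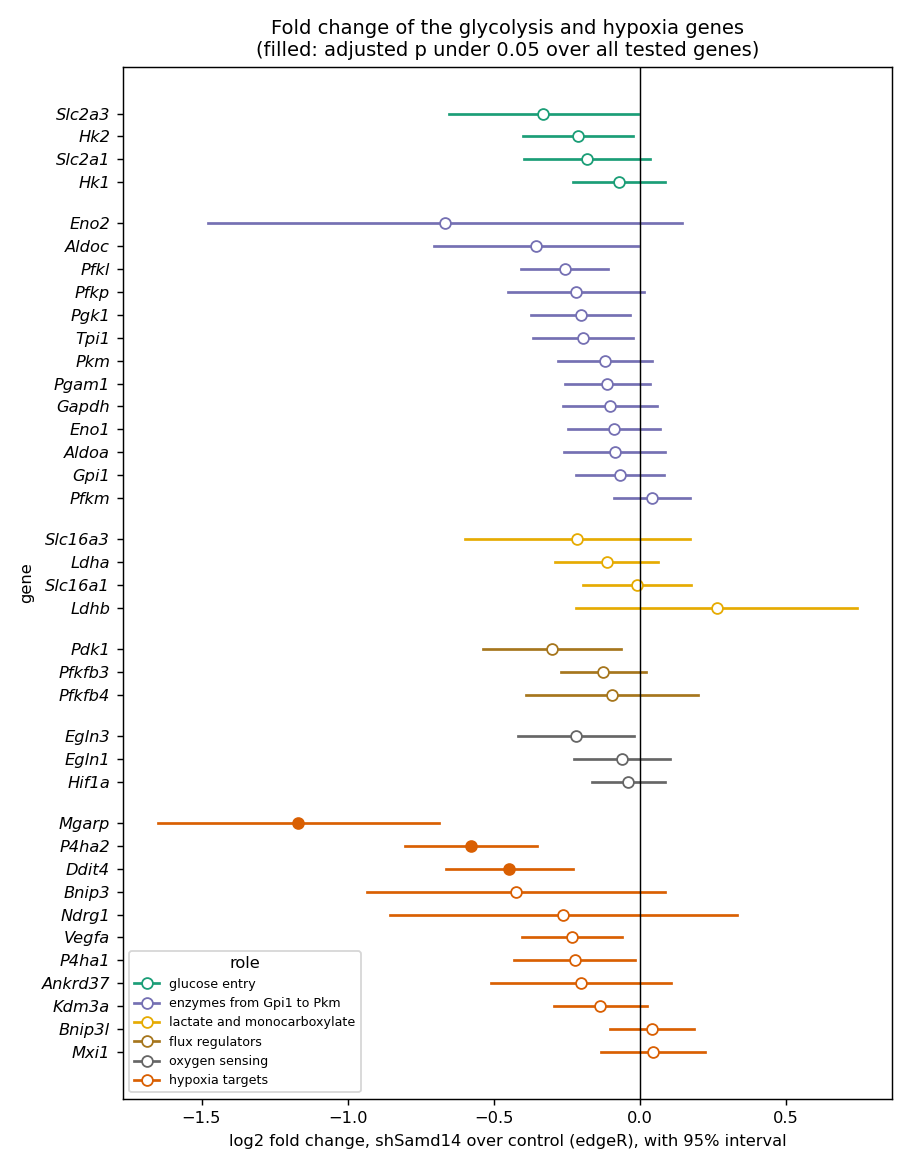
Log2 fold change of each of the 38 genes, shSamd14 over control, from edgeR on the x axis, with lines for the 95% confidence interval, grouped and coloured by role on the y axis (n = 3 libraries per group). Filled points mark the genes past an adjusted p of 0.05 over all tested genes: Mgarp at -1.17, P4ha2 at -0.58 and Ddit4 at -0.45. The other 35 points are open, and 31 of them lie left of 0.

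The promoters of the 3 genes that fell are shown because HIF binds a short core sequence in the promoters of its targets. Each line gives the 250 bases before the RefSeq start (GRCm38.p6), 5′ to 3′ on the gene's strand. By the GENCODE coordinates given below for each gene, the P4ha2 window lies within the gene. The windows of Ddit4 and Mgarp lie partly within their genes. Capitals mark the core, ACGTG or GCGTG, read on either strand, so that CACGT or CACGC marks it on the opposite strand.
Ddit4, chr10:59951771-59952020, minus strand: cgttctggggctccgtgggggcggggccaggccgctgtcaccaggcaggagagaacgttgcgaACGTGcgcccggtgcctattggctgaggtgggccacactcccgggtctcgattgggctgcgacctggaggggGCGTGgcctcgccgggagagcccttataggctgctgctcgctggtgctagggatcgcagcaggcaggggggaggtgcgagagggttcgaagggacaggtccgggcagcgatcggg
Mgarp, chr3:51396548-51396797, minus strand: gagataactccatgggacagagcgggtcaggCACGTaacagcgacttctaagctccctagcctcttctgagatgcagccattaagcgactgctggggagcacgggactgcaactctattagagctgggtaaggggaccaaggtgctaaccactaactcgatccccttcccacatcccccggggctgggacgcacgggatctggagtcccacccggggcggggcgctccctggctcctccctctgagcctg
P4ha2, chr11:54100674-54100923, plus strand: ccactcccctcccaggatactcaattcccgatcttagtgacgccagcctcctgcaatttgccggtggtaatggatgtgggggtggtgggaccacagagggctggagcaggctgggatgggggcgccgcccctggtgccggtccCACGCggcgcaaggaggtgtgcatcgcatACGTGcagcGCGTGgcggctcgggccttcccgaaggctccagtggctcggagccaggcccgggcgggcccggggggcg

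The core stands 2 times in the Ddit4 window, 1 time in that of Mgarp and 3 times in that of P4ha2. RefSeq promoters were found for 35 of the 38 genes, all but Slc2a3, Bnip3l and Ndrg1. Over these genes the core was present in 41 of 53 windows (77.4%), 28 of 36 glycolytic (77.8%) and 13 of 17 other windows (76.5%). It was present in 55.3% of the 12445 windows of tested genes and in 38.6% of all 32851 windows. The mean GC content was 61.4% in the windows of the set, 59.6% in those of tested genes and 53.2% in all. A match of 5 bases describes the letters and is not a binding site.

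Ddit4, also known as REDD1, encodes a stress-induced inhibitor of mTOR complex 1 (ENSMUSG00000020108; chromosome 10, 59949669 to 59951834, minus strand, GRCm38). It had 112, 94.2 and 96.5 CPM in shSamd14 libraries 1, 2 and 3, against 151, 118 and 144 CPM in control libraries 1, 2 and 3. The groups did not overlap, with control 2 close to shSamd14 1. Means were 101 ± 9.85 CPM in shSamd14 and 138 ± 17.4 CPM in control (SD, n = 3 each), and the log2 fold change was -0.45 (SE 0.10, 95% confidence interval -0.66 to -0.23, edgeR adjusted p = 0.0408). DESeq2 (adjusted p = 0.000302) and limma-voom also called Ddit4. Of the edgeR calls, Ddit4 was the one most often lost when a library was left out. It missed the threshold without control 1 (log2 fold change -0.38, edgeR adjusted p = 0.136), without control 3 (-0.42, 0.0952), without shSamd14 2 (-0.40, 0.138) and without shSamd14 3 (-0.42, 0.133), and with upper quartile factors (-0.45, 0.0556). The size of the fold change thus stayed near that of the full fit when the call was lost.

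P4ha2 encodes an alpha subunit of collagen prolyl hydroxylase, which matures collagen chains in the endoplasmic reticulum (ENSMUSG00000018906; chromosome 11, 54100095 to 54131665, plus strand, GRCm38). It had 8.98, 9.43 and 8.97 CPM in shSamd14 libraries 1, 2 and 3, against 14.9, 12.8 and 13.1 CPM in control libraries 1, 2 and 3. The shSamd14 libraries were nearly equal, and every control library was above them. Means were 9.13 ± 0.263 CPM in shSamd14 and 13.6 ± 1.13 CPM in control (SD, n = 3 each). The log2 fold change was -0.58 (SE 0.11, 95% confidence interval -0.80 to -0.35, edgeR adjusted p = 0.00939). Its paralog P4ha1 had a log2 fold change of -0.22 and did not pass (edgeR adjusted p = 0.292). Per length, P4ha2 was the minor form, with 13.8%, 14.4% and 15.7% of the summed TPM of the pair in shSamd14 libraries 1, 2 and 3, against 17.6%, 19.2% and 16.9% in control libraries 1, 2 and 3. This share was lower in every shSamd14 library than in every control library; it was not tested.

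Mgarp encodes a mitochondrial membrane protein that in neurons is linked to the transport of mitochondria under hypoxia (ENSMUSG00000037161; chromosome 3, 51388412 to 51396738, minus strand, GRCm38). It had 2.24, 2.93 and 1.48 CPM in shSamd14 libraries 1, 2 and 3, against 5.51, 4.01 and 5.37 CPM in control libraries 1, 2 and 3. These values rest on 56, 70 and 40 reads in shSamd14 and 114, 92 and 129 reads in control. The groups did not overlap, and the lowest value was that of shSamd14 3. Means were 2.22 ± 0.726 CPM in shSamd14 and 4.96 ± 0.829 CPM in control (SD, n = 3 each). The log2 fold change of -1.17 (SE 0.22, 95% confidence interval -1.65 to -0.69, edgeR adjusted p = 0.0135) was the largest of the set in size.

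All 3 calls depended on control 1. Without that library no gene of the set passed: P4ha2 had a log2 fold change of -0.51 (edgeR adjusted p = 0.0554) and Mgarp one of -1.09 (edgeR adjusted p = 0.0726). When any of the other 5 libraries was left out instead, P4ha2 and Mgarp still passed. With offsets for effective length edgeR still called Ddit4 (edgeR adjusted p = 0.0423), P4ha2 (edgeR adjusted p = 0.0174) and Mgarp (edgeR adjusted p = 0.0280). Limma on log2(TPM + 1) was run on genes that reached 1 TPM in 3 or more libraries. It called Mgarp and not Ddit4 (limma adjusted p = 0.0737) or P4ha2 (limma adjusted p = 0.0506), with log2 differences of -0.43 and -0.50.

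**Figure D2:**
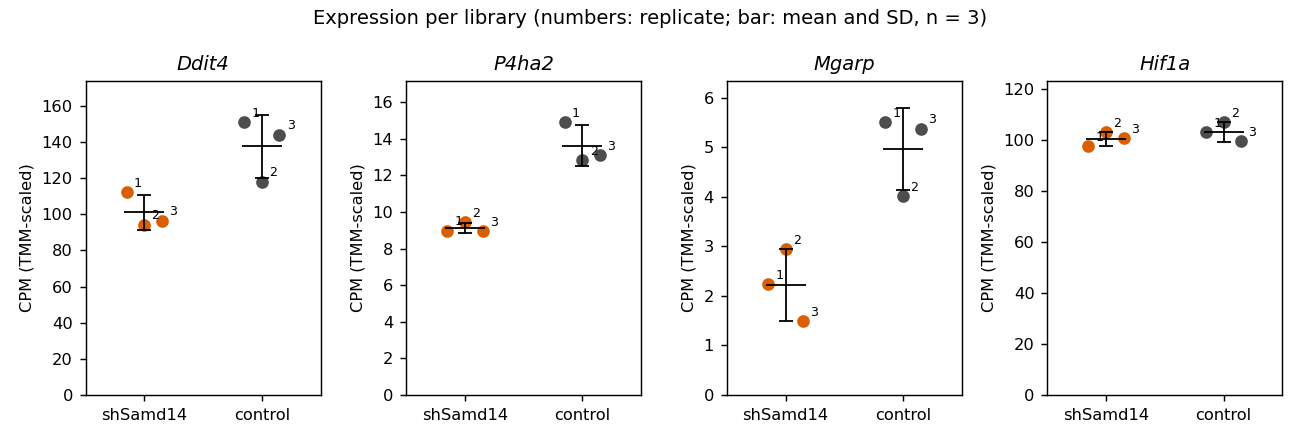
TMM-scaled CPM of Ddit4, P4ha2, Mgarp and Hif1a on y axes that start at 0, with 3 shSamd14 libraries left of 3 control libraries in each panel, points numbered by replicate, and bars for the mean and SD. In Ddit4, P4ha2 and Mgarp every shSamd14 point lies below every control point, whereas in Hif1a the groups overlap at means near 100 CPM.

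Glucose entry was led by the transporters Slc2a1 (GLUT1) and Slc2a3 (GLUT3), which let glucose into the cell, and by the hexokinases Hk1 and Hk2, which trap it by phosphorylation. None of these 4 genes passed the test, and all 4 log2 fold changes were negative. Slc2a3 had 176, 169 and 155 CPM in shSamd14 libraries 1, 2 and 3, against 257, 186 and 184 CPM in control libraries 1, 2 and 3 (log2 fold change -0.33, SE 0.14, edgeR adjusted p = 0.323). The groups did not overlap, but controls 2 and 3 lay close above shSamd14 1, and control 1 stood well above all other libraries. Without control 1 the log2 fold change of Slc2a3 was -0.16. With the replicate number as a block Slc2a3 passed. Hk2 had 94.0, 94.0 and 79.1 CPM in shSamd14, against 115, 101 and 93.4 CPM in control (log2 fold change -0.21, SE 0.09, edgeR adjusted p = 0.265), and control 3 lay just below shSamd14 1 and 2. Slc2a1 had 138, 116 and 112 CPM in shSamd14, against 151, 121 and 142 CPM in control, with overlap (log2 fold change -0.18, SE 0.10, edgeR adjusted p = 0.436). Per length, the transporters contributed about equally to their summed TPM, Slc2a1 with a mean of 49.6% in shSamd14 and 48.0% in control. Hk1 made up 96.6% of the hexokinase pair in shSamd14 and 96.3% in control, and its log2 fold change was -0.07 (edgeR adjusted p = 0.715).

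The enzymes from glucose phosphate isomerase to pyruvate kinase ranged from Gapdh, the most abundant gene of the set, to Eno2, the least abundant. Gapdh was at 4088 ± 149 TPM in shSamd14 and 4274 ± 119 TPM in control (SD, n = 3 each), and Aldoa, the next enzyme of this stretch, at 1666 ± 128 TPM in shSamd14 and 1776 ± 97.4 TPM in control. None of the 13 passed, 12 had a negative log2 fold change, and 5 (Pfkl, Tpi1, Pgk1, Pgam1 and Eno2) had all shSamd14 libraries below all control libraries. Pfkl encodes the liver type of phosphofructokinase, the committing step of the pathway. It had 246, 216 and 207 CPM in shSamd14 libraries 1, 2 and 3, against 277, 259 and 263 CPM in control libraries 1, 2 and 3. Its log2 fold change of -0.26 (SE 0.07, 95% confidence interval -0.41 to -0.11) had the smallest p of the glycolytic genes, with an edgeR adjusted p of 0.0694. It passed in DESeq2 (adjusted p = 0.0183), without the filter on counts (edgeR adjusted p = 0.0238) and without shSamd14 1 (edgeR adjusted p = 0.0231). Pfkl also passed with the replicate number as a block.

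Pfkl was also the largest of the phosphofructokinase forms per length, with a mean of 45.2% of their summed TPM in shSamd14 and 47.7% in control. Pfkp, the platelet type, held 31.1% in shSamd14 and 32.1% in control, with a log2 fold change of -0.22 (edgeR adjusted p = 0.372). With the replicate number as a block Pfkp passed. Pfkm, the muscle type, held 23.7% in shSamd14 and 20.3% in control, with a log2 fold change of 0.04 (edgeR adjusted p = 0.799). The share of Pfkm was higher, and that of Pfkl lower, in each shSamd14 library than in each control library. These differences were not tested.

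Pgk1, an ATP-forming kinase of the lower pathway, had 1168, 1130 and 967 CPM in shSamd14 libraries 1, 2 and 3, against 1307, 1202 and 1248 CPM in control libraries 1, 2 and 3 (log2 fold change -0.20, SE 0.08, edgeR adjusted p = 0.223). Tpi1, triose phosphate isomerase, had 791, 724 and 627 CPM in shSamd14, against 829, 805 and 817 CPM in control (log2 fold change -0.19, SE 0.08, edgeR adjusted p = 0.258). In both genes the groups did not overlap, and shSamd14 3 was the lowest library by a wide margin. Gapdh had 3368, 3050 and 2966 CPM in shSamd14, against 3225, 3322 and 3522 CPM in control, so that shSamd14 1 lay within the control range (log2 fold change -0.10, 95% confidence interval -0.26 to 0.06, edgeR adjusted p = 0.581). Among the rest, Gpi1, Aldoa, Pgam1, Eno1 and Pkm had log2 fold changes between -0.12 and -0.07. Aldoc (-0.35, edgeR adjusted p = 0.322) and Eno2 (-0.67, edgeR adjusted p = 0.450) had larger values at low levels: Aldoc made up 0.637% of the aldolase pair's TPM in shSamd14 and 0.747% in control, and Eno2 stayed under 1 CPM in every library. Aldoc passed without control 2 (-0.53, edgeR adjusted p = 0.0313), while its value without control 3 was -0.17 (edgeR adjusted p = 0.582).

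Lactate handling showed no call in the main fit, while Slc16a3 passed with the replicate number as a block. Ldha, the subunit of lactate dehydrogenase that favours lactate, had 1823, 1675 and 1447 CPM in shSamd14 libraries 1, 2 and 3, against 1800, 1813 and 1736 CPM in control libraries 1, 2 and 3. The groups overlapped, since shSamd14 1 was the highest of all libraries and shSamd14 3 the lowest (log2 fold change -0.11, 95% confidence interval -0.29 to 0.06, edgeR adjusted p = 0.574). The lactate exporter Slc16a3 (MCT4) had 248, 203 and 163 CPM in shSamd14, against 259, 230 and 224 CPM in control, again with the lowest value in shSamd14 3 (log2 fold change -0.21, SE 0.16, edgeR adjusted p = 0.606). Ldhb, the subunit that favours pyruvate, ran the other way at a low level, with 4.63, 6.29 and 7.97 CPM in shSamd14 and 3.82, 5.97 and 5.91 CPM in control (log2 fold change 0.26, SE 0.22, edgeR adjusted p = 0.632). Ldha made up 99.5% of the summed TPM of Ldha and Ldhb in shSamd14 and 99.6% in control. Slc16a1 (MCT1) had a log2 fold change of -0.01 (edgeR adjusted p = 0.974), and Slc16a3 held 71.2% of the TPM of this transporter pair in shSamd14 and 74.8% in control.

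Of the regulators of flux, Pdk1, the kinase that shuts pyruvate out of the mitochondrial pyruvate dehydrogenase reaction, had 161, 159 and 122 CPM in shSamd14 libraries 1, 2 and 3, against 196, 169 and 179 CPM in control libraries 1, 2 and 3. The groups did not overlap, with shSamd14 3 far below the others. The log2 fold change was -0.30 (SE 0.10) and did not pass in the main edgeR fit (adjusted p = 0.207), but did in DESeq2 (adjusted p = 0.0473). Pdk1 also passed in edgeR with the replicate number as a block. Pfkfb3 and Pfkfb4 encode enzymes that set the level of an activator of phosphofructokinase. Pfkfb3 had 38.0, 40.4 and 39.1 CPM in shSamd14, against 44.7, 42.3 and 41.0 CPM in control, without overlap and with a log2 fold change of -0.12 (SE 0.07). In TPM it ranged over 14.1 to 14.6 in shSamd14 and 14.3 to 16.1 in control, with overlap, and with offsets for effective length its log2 fold change was -0.06. Pfkfb4 had 20.9, 23.1 and 28.9 CPM in shSamd14, against 22.9, 25.0 and 30.0 CPM in control, with overlap (log2 fold change -0.10, SE 0.13, edgeR adjusted p = 0.790). In Pfkfb4 replicate 3 was the highest library of both groups, and its direction turned to 0.01 without control 3. Pfkfb3 held 53.8% of the TPM of the pair in shSamd14 and 52.8% in control.

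None of the 3 genes of oxygen sensing passed. Hif1a, the oxygen-regulated subunit of HIF, had 97.5, 103 and 101 CPM in shSamd14 libraries 1, 2 and 3, against 103, 107 and 99.4 CPM in control libraries 1, 2 and 3. The groups overlapped, with a log2 fold change of -0.04 and a 95% confidence interval of -0.16 to 0.09 (edgeR adjusted p = 0.813). HIF is set mainly by the stability of this protein, which RNA does not report. Egln1 (PHD2) and Egln3 (PHD3) encode hydroxylases that mark it for destruction, and Egln3 is itself a HIF target. Egln3 had 242, 235 and 194 CPM in shSamd14, against 288, 241 and 251 CPM in control, where control 2 lay just below shSamd14 1 (log2 fold change -0.22, SE 0.09, edgeR adjusted p = 0.280). Egln1 had 101, 101 and 81.5 CPM in shSamd14, against 99.1, 98.3 and 97.8 CPM in control. Its log2 fold change of -0.06 (SE 0.08, edgeR adjusted p = 0.764) came from shSamd14 3, and without that library it was 0.03. Egln3 held 75.9% of the TPM of the pair in shSamd14 and 77.7% in control, a share that did not overlap between groups and was not tested.

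Besides the 3 genes that fell, 8 other HIF targets were measured. Bnip3 and Bnip3l encode receptors that hand mitochondria to autophagy, and Bnip3l is needed to clear mitochondria from maturing red cells. Bnip3 had 128, 125 and 82.1 CPM in shSamd14 libraries 1, 2 and 3, against 166, 133 and 150 CPM in control libraries 1, 2 and 3. The groups did not overlap, and shSamd14 3 stood well below the rest, so that the log2 fold change of -0.42 carried an SE of 0.20 (edgeR adjusted p = 0.422). Bnip3l had a log2 fold change of 0.04 (SE 0.07, edgeR adjusted p = 0.825). Bnip3 made up 49.9%, 48.0% and 38.9% of the summed TPM of the pair in shSamd14, against 56.0%, 53.6% and 52.5% in control. This share did not overlap between groups and was not tested.

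Vegfa, the vessel growth factor, is described because its groups overlapped on one scale only, as in Pfkfb3, which was seen after its values were. It had 33.7, 33.6 and 29.5 CPM in shSamd14 libraries 1, 2 and 3, against 38.8, 34.8 and 40.0 CPM in control libraries 1, 2 and 3, without overlap (log2 fold change -0.23, SE 0.08, edgeR adjusted p = 0.174). In TPM it had 20.4, 20.9 and 18.3 in shSamd14, against 22.5, 18.8 and 21.8 in control, and the groups overlapped. The effective length that RSEM assigned to it, an average over its transcripts, was 2704, 2706 and 2794 bases in shSamd14, against 2981, 3034 and 3001 bases in control. These lengths did not overlap between groups. With offsets for effective length the log2 fold change of Vegfa was -0.09 (edgeR adjusted p = 0.683). Whether the transcripts used differ was not tested.

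The remaining targets did not pass. P4ha1, Ankrd37, an ankyrin repeat protein, and Kdm3a, a histone demethylase, had log2 fold changes of -0.22, -0.20 and -0.13. Ndrg1, a stress response gene, had 24.2, 24.9 and 20.5 CPM in shSamd14, against 32.0, 18.6 and 32.8 CPM in control, and the lowest of all its libraries was control 2 (log2 fold change -0.26, SE 0.24, edgeR adjusted p = 0.681). Without control 2 it passed (-0.48, edgeR adjusted p = 0.0192), and without control 3 its log2 fold change was -0.13. Mxi1, a repressor that competes with Myc for Max, had a log2 fold change of 0.05 (edgeR adjusted p = 0.843).

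Which library each difference rested on was read from the log2 difference of every library from the mean of the control libraries. The lowest of the 6 libraries was shSamd14 3 in 25 of 38 genes (65.8%), 16 of them glycolytic, while it was the lowest in 20.3% of all tested genes. The highest was control 1 in 20 genes and control 3 in 10, while they were the highest in 21.5% and 13.9% of all tested genes. Of all 12670 tested genes, 6018 to 6409 lay below the control mean in each library. Of the 38 genes, 27 in shSamd14 1, 31 in shSamd14 2 and 34 in shSamd14 3 lay below the control mean, against 8 in control 1, 33 in control 2 and 16 in control 3. Control 2 therefore sat on the same side as the shSamd14 libraries in most genes.

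**Figure D3:**
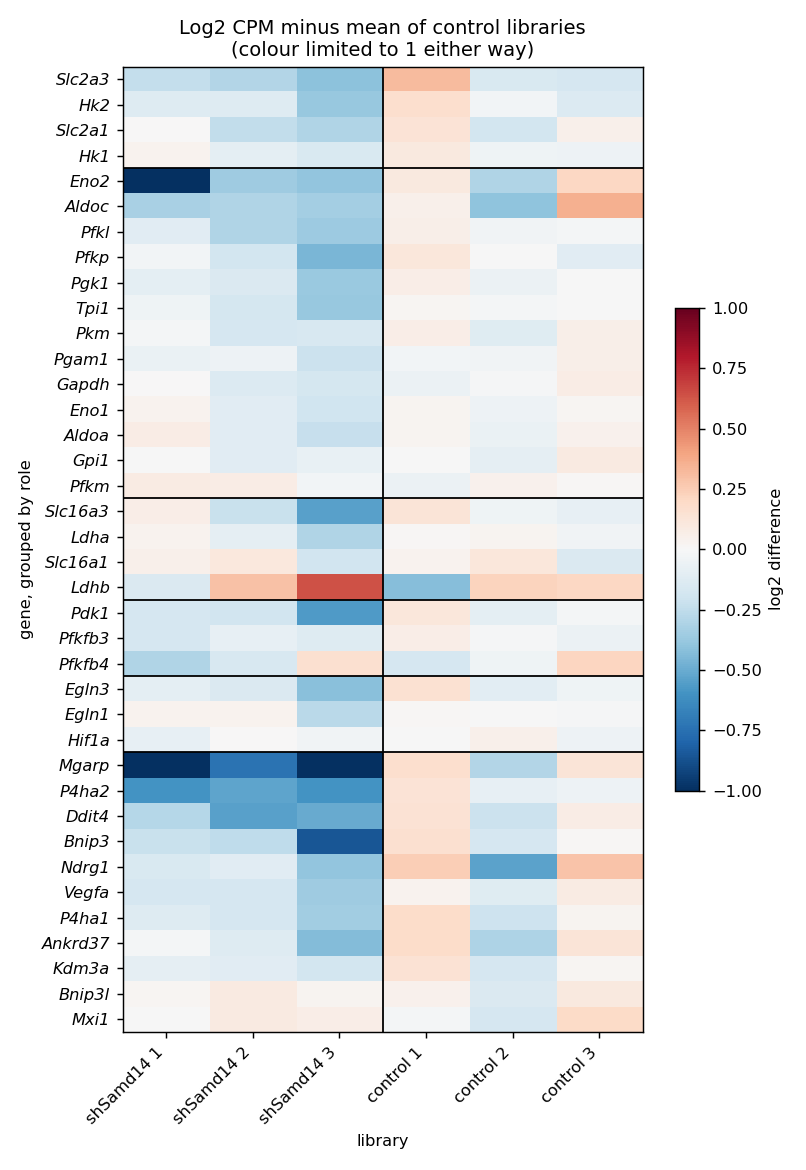
Log2 difference of each library from the mean of the control libraries, one row per gene grouped by role and one column per library, shSamd14 left of control. Blue is below and red above the control mean, with colour limited to 1 either way. The shSamd14 3 column is the darkest blue in most rows, control 1 is mostly red, and control 2 is below the control mean in 33 of 38 rows.

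Medians over each class gave the same order of the shSamd14 libraries. The median difference over the glycolytic genes was -0.04, -0.14 and -0.26 in shSamd14 libraries 1, 2 and 3, against 0.05, -0.05 and 0.01 in control libraries 1, 2 and 3. For the other hypoxia genes it was -0.12, -0.13 and -0.37 in shSamd14, against 0.14, -0.17 and 0.05 in control. The shSamd14 1 value of the glycolytic genes and the shSamd14 1 and 2 values of the other hypoxia genes thus lay within the range of the control libraries, while shSamd14 3 lay below it in both classes. Over all tested genes the medians were at most 0.011 from 0 in every library. Summed over the glycolytic genes, the level was 16750, 15367 and 14360 CPM in shSamd14, against 17105, 16284 and 17050 CPM in control, with overlap. Summed over the other hypoxia genes it was 1217, 1207 and 1067 CPM in shSamd14, against 1405, 1193 and 1339 CPM in control, also with overlap.

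**Figure D4:**
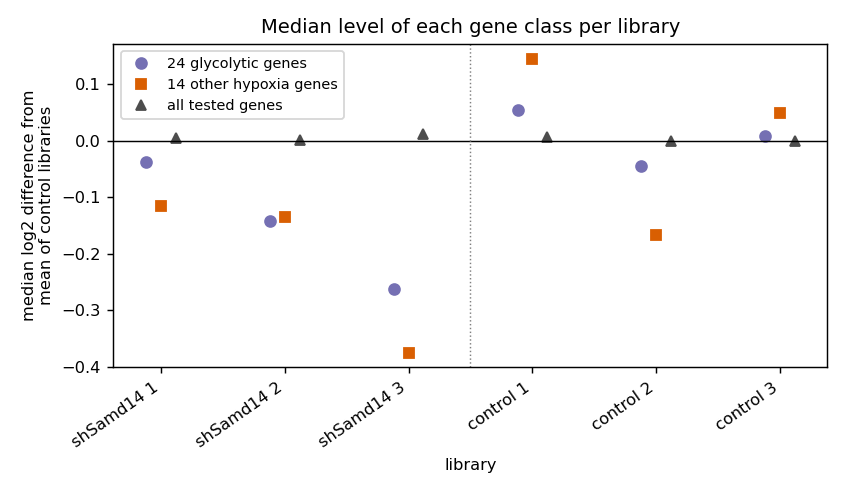
Median log2 difference from the mean of the control libraries in each of the 6 libraries, shSamd14 left of control, for 24 glycolytic genes (circles), 14 other hypoxia genes (squares) and all tested genes (triangles). Both classes are lowest in shSamd14 3, at -0.26 and -0.37, while all tested genes stay near 0, and control 2 lies below 0 in both classes.

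Leaving out libraries moved the class medians and turned neither. The median of the glycolytic genes was -0.19 without shSamd14 1 and -0.11 without shSamd14 3, against -0.12 with all libraries. The median of the other hypoxia genes was -0.14 without control 1, -0.14 without shSamd14 3 and -0.30 without control 2, against -0.22 with all libraries. Without shSamd14 3 the log2 fold change was -0.25 for Bnip3, -0.19 for Pdk1, -0.13 for Pgk1, -0.11 for Tpi1, -0.08 for Slc16a3, -0.03 for Ldha and 0.05 for Ldhb. The neutrophil markers were highest in replicate 3 of both groups, 5171 CPM in shSamd14 3 and 5072 CPM in control 3. The part of these neutrophil markers, or of the erythroid and megakaryocyte markers, in the differences was not tested.

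Related genes were read from lists that did not overlap the set, in the same edgeR fit. Of 26 further hypoxia targets 23 were tested, and 2 (8.70%) were called lower and none higher. Over all tested genes 1.26% were called lower and 1.32% higher. Ero1l, the oxidase that drives disulfide formation in the endoplasmic reticulum, had 408, 436 and 385 CPM in shSamd14 libraries 1, 2 and 3, against 602, 493 and 562 CPM in control libraries 1, 2 and 3 (log2 fold change -0.43, SE 0.08, edgeR adjusted p = 0.00939). Gbe1, the glycogen branching enzyme, had 33.8, 35.9 and 35.9 CPM in shSamd14, against 47.2, 39.8 and 46.7 CPM in control (log2 fold change -0.34, SE 0.08, edgeR adjusted p = 0.0296). Both fell without overlap between groups, and limma-voom called only Ero1l of them. DESeq2 called both and also Pgm1, an enzyme of glycogen metabolism (log2 fold change -0.28, edgeR adjusted p = 0.0591). Angptl4, an inhibitor of lipoprotein lipase, ran the other way without overlap (0.39, edgeR adjusted p = 0.0917). Pgm1 and Angptl4 were named after their values were seen. The log2 fold change was negative in 17 of the 23 genes (73.9%), against 48.4% of all tested genes. Its median was -0.11, against 0.006 over all tested genes.

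Upstream and neighbouring pathways held no edgeR call. Of 14 HIF subunits and regulators 13 were tested and 3 had an unadjusted p under 0.05. The smallest p was that of Eloc, elongin C of the ubiquitin ligase that removes HIF, with 89.0, 91.8 and 73.9 CPM in shSamd14, against 103, 107 and 98.0 CPM in control (log2 fold change -0.28, edgeR adjusted p = 0.0861). DESeq2 called Eloc lower, and limma-voom called none. The median of the 13 genes was 0.03, with 6 negative. All shSamd14 libraries lay below all control libraries in 4 of 13 (30.8%), against 10.2% of all tested genes. These were Eloc, Epas1 (-0.60, at most 0.773 CPM), Hif3a (-0.15, edgeR adjusted p = 0.242) and Arnt (-0.05). The shSamd14 libraries lay above in 2, Egln2 (0.22, edgeR adjusted p = 0.203) and Siah2 (0.13). All but Eloc were named after their values were seen. Of 13 genes around mTOR complex 1, the complex that Ddit4 inhibits, 1 had an unadjusted p under 0.05: Deptor, another inhibitor of mTOR, at 0.25 (edgeR adjusted p = 0.261). In the other lists no gene had an unadjusted p under 0.05, and in none of these or the mTOR list did DESeq2 or limma-voom make a call. They were 9 genes of the pentose phosphate pathway (median 0.006, led by Pgls at 0.20), 12 of 13 genes of pyruvate entry to mitochondria (median -0.01, led by Pdha1 at -0.13), 14 of 22 other isoforms of glycolysis (median 0.03, led by Hk3 at 0.53) and 5 of 6 genes of Myc and its partners (median -0.02, led by Mlx at 0.05). The smallest edgeR adjusted p of these 4 lists was 0.346, that of Pgls.

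The 38 genes lay on 16 chromosomes, with 7 on chromosome 6 and 4 on chromosome 10, where Ddit4, Hk1, P4ha1 and Pfkl lie. Pfkm, Pfkp, Aldoa, Tpi1, Gapdh, Ankrd37 and Mxi1 overlap a protein-coding gene on the opposite strand, and since the use of strand in counting is not given in the sources used here, their counts may hold reads of that neighbour. Hif1a overlaps a gene annotated as protein-coding on its own strand, so reads from the shared stretch may be divided between them. Ddit4, P4ha2, Mgarp, Pfkl, Pdk1 and Vegfa overlap no annotated gene. The close relatives Pgk2, Eno1b, Aldoart1, Aldoart2 and Gapdhs, with which reads could be shared, were at most 0.483 CPM in any library. The words CAAGTGT and AAGTGTA had come up in an earlier search of these data as frequent in 3′ untranslated regions (UTRs) of genes that fell. They stood in 58.0% of the UTRs of genes called lower, 24.55% of genes called higher and 22.2% of genes not called. Since the words came from these data, the share in genes called lower is no independent result, and UTR length was not matched. In the set they stood in 5 of 38 genes (13.2%), Slc2a1, Hk2, Pfkm, Pfkfb3 and Bnip3l. Neither word stood in the UTRs of Ddit4, P4ha2, Mgarp or Gbe1, while that of Ero1l held CAAGTGT.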

How the data were processed

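Per the submitters' processing notes, the reads went through CASAVA 1.8.2, RSEM 1.2.15 and Bowtie 1.0.1 on mm10, with no role stated for each. The annotation and the strand setting were not given in the sources used here. Per the file headers, the authors deposited for each gene an RSEM expected count, in which reads shared between genes are divided, TPM, which is scaled by the transcripts' length, and the effective length. Such a count need not be whole, and is less certain where a gene has a near-identical copy.

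Rounded expected counts entered edgeR 4.0.16 under R 4.3.3 (TMM, filterByExpr with a minimum count of 10 and total of 15, robust quasi-likelihood, two-sided, Benjamini-Hochberg over 12670 genes, called at 0.05). SEs were taken as the size of the log2 fold change over the root of F. CPM carry the TMM factors, and 3 counts were taken as the floor, for counting error only. Symbols and coordinates came from GENCODE M21 (GRCm38), which named 23580 of 24376 IDs. No library was a duplicate: within a group, pairs had 5.73 to 12.16 as chi-square divided by genes.

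Genes with printed library values were the called ones, the 3 with the smallest p in each role, Hif1a, Gapdh and Samd14, with paralogs beside them. Further lists name genes past the threshold, or else the smallest p, besides those said to be named after their values were seen. Bnip3, Vegfa and Ndrg1 values were added after they were seen. Members and lists were chosen with earlier results of these data known. Alternatives used limma 3.58.1 and DESeq2 1.42.0.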

Additional observations from a re-analysis of the deposited data

How the results depend on the processing

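No gene of the set was called higher in any alternative, and 32 to 35 log2 fold changes stayed negative, of 38 tested, or of 37 without Eno2 under a filter of 1 CPM or 1 TPM. Against 3 genes called lower in the set and 327 calls over all genes, DESeq2 called 5 in the set (426 over all genes). An adjusted p under 0.01 left 1 (104 over all genes). Limma on log2(TPM + 0.1) called 1 (130 over all genes), on log2(TPM + 1) 1 (136), and on log2(TPM + 1) without a filter 0 (16). With 1 library left out, the calls ranged from 0 to 5 in the set and from 128 to 283 over all genes, with fewer samples in each fit. With the replicate number as a block there were 8 calls in the set and 682 over all genes, and the 5 added were glycolytic: Slc2a3, Pfkl, Pfkp, Slc16a3 and Pdk1. Same-numbered libraries correlated at -0.092, 0.219 and 0.38. Libraries 2 and 3 of shSamd14 correlated best with their own number, and shSamd14 1 with control 2 (0.257). With 3 libraries per group this check cannot decide whether the numbers pair the samples. The labels state no pairing, so the main fit had no block. With 1 library left out, Egln1 ranged from -0.12 to 0.030 and Pfkfb4 from -0.25 to 0.015, turning without shSamd14 3 and control 3. Slc16a1 (-0.085 to 0.072), Bnip3l (-0.026 to 0.085) and Mxi1 (-0.035 to 0.142), all near 0, also turned in such fits; the cause was not tested. The class medians moved by less than the spread between libraries. Depth limits Eno2 and Mgarp most, which rest on few reads.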
